A study of Homo sapiens with 4 samples.

Results

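The genes described here are metallothioneins and other genes of zinc handling in MDA-MB-231 cells, an established line of human breast cancer cells. They are a list of 10 symbols (MT1E, MT1X, MT2A, MT1F, MT1G, MTF1, SLC30A1, SLC39A7, SLC39A10 and SLC39A14) chosen by the FPKM of this same comparison, so the levels and fold changes of these genes are given as a description and carry no test. Of the 10 symbols, 9 matched a row among 25133 rows with a gene symbol, and MT1G matched none and is not analysed here. RNA was sequenced from 2 libraries of cells infected with lentivirus carrying a short hairpin against JARID2 (shJARID2, genotype label JARID2 knockdown) and from 2 libraries of cells infected with a scrambled hairpin (shSCR, genotype label WT). JARID2 encodes an accessory subunit of Polycomb repressive complex 2, which methylates histone H3 at lysine 27. All libraries come from the same line, grown in medium with serum and infected in the presence of Polybrene. The labels give neither the time after infection nor the number of hairpins or clones, and leave unsaid if replicates are independent cultures. Any p-value then covers only library-to-library spread, which may be technical.

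Metallothioneins are small cytosolic proteins whose many cysteines bind zinc and copper, and they buffer the free zinc of the cell. The zinc-sensing transcription factor MTF1 binds metal response elements in their promoters and turns them on when zinc or cadmium rises, and glucocorticoids and oxidants are known to induce them too. Zinc crosses membranes through transporters of the SLC30 (ZnT) and SLC39 (ZIP) families. Most ZnT transporters lower cytosolic zinc by export or by filling organelles. ZIP transporters raise it by import or by release from organelles.

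Expression was deposited as FPKM, a read density scaled for gene length and library size. The steps between low values gave about 12900000 and 12800000 counted reads in the shJARID2 libraries, and about 15500000 and 16200000 in the shSCR libraries. JARID2 itself measured 3.88 and 3.91 FPKM in shJARID2, against 10.8 and 10.8 FPKM in shSCR, a log2 fold change of -1.27 (SE 0.059; Benjamini-Hochberg adjusted p = 0.0014 by limma). In bulk RNA, fewer cells expressing a gene and less RNA per cell cannot be told apart. Of all genes, 7434 of 12455 tested genes (59.7%) were called, at an adjusted p below 0.05, with 28.0% higher and 31.6% lower in shJARID2. Genes with GC-rich transcripts tended to be lower in shJARID2 (Spearman's rho -0.67 across genes, which are not independent replicates). GC-corrected log2 fold changes, from which that trend was removed in each library, are therefore given beside the measured ones. Of 5 genes that MDA-MB-231 cells are known to express, CD44 was at 68.9 FPKM or more and AXL at 167 FPKM or more in every library. VIM, the vimentin gene, was at 2.10 and 2.77 FPKM in shJARID2, against 3.54 and 4.20 FPKM in shSCR, and KRT8 and KRT18 were between 6.04 and 14.96 FPKM. These are low levels for genes that the line is known to express strongly, and whether the counting left out reads of such genes, or of MT2A, was not tested. Of the luminal markers ESR1, PGR, CDH1 and GATA3 stayed at or below 0.451 FPKM and ERBB2 was at 6.58 to 15.7 FPKM, while the 9 markers of leukocytes, endothelium and fibroblasts reached at most 0.837 FPKM.

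The coding sequences of the 3 metallothioneins that carried reads are shown because their likeness bears on which gene a read is assigned to. They are from GENCODE release 29 and lie on the + strand of chromosome 16 of GRCh38. Each has 186 bases with the stop codon, of which 20 codons are TGC or TGT, the codons of cysteine. Capitals mark bases that differ from MT1E at the same position.
MT1E: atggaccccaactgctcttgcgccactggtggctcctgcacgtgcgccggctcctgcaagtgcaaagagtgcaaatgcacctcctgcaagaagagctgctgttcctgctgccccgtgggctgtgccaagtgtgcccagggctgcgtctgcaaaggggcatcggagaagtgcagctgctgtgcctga
MT1X: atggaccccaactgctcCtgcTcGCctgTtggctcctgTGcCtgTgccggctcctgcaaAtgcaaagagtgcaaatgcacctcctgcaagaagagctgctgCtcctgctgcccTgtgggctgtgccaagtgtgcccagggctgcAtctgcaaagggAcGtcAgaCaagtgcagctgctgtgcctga
MT2A: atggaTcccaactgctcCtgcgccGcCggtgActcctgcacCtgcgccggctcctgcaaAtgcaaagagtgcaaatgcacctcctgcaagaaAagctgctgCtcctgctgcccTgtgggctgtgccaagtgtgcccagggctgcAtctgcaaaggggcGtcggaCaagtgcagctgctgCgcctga
MT1X differed from MT1E at 17 bases (90.9% equal) and MT2A differed from MT1E at 14 bases (92.5% equal), and the longest stretch shared exactly with MT1E was 41 bases in MT1X and 32 bases in MT2A. Over all annotated transcripts of each gene, 7.1% of the 50-base words of MT1E, 18.3% of those of MT1X and 3.0% of those of MT2A also occurred in a transcript of another gene. At 100 bases no word of MT1E or MT2A was shared, and 11.3% of those of MT1X were shared with AC026461.1, which overlaps 18.1% of its exon bases. How multiply matching reads were counted is not given in the sources used here, so metallothionein values are uncertain as far as reads were split between copies.

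The promoters of MT2A, MT1X and SLC30A1 are shown because each gene is a known target of MTF1 while, of the 3, MT1X alone separated the groups. The sequences are the 250 bases before the RefSeq start on GRCh38.p14, 5′ to 3′ on the strand of the gene. Capitals mark matches, on either strand, to the core of the metal response element, searched as TGCACNC or TGCGCNC, and no match overlapped another. MT2A lies at chr16:56608334-56608583 (+), MT1X at chr16:56682220-56682469 (+) and SLC30A1 at chr1:211579162-211579411 (-).
MT2A: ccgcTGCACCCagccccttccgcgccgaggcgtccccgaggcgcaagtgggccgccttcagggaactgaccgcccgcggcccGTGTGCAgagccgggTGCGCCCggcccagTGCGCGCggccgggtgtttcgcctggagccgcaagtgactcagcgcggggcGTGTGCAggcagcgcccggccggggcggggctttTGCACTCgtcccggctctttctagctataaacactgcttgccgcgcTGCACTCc
MT1X: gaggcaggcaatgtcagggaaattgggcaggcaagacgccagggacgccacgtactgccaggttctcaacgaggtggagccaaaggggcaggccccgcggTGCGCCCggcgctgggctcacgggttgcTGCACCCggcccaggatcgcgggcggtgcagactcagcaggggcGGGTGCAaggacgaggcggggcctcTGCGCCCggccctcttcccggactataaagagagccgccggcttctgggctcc
SLC30A1: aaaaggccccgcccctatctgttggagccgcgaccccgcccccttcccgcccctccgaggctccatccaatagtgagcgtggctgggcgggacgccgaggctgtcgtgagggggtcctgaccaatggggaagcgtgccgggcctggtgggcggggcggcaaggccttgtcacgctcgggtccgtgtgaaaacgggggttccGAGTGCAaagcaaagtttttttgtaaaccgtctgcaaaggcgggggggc
The window held 7 matches in MT2A, 4 in MT1X and 1 in SLC30A1. Of 35116 RefSeq promoter windows of this length, 24.83% held at least 1 match, 0.37% at least 4 and 0.03% at least 7. None was found in the windows of MTF1, SLC39A7 and SLC39A10, where these letters do not occur. Windows of MT1E, MT1F and SLC39A14 were not among the promoter sequences used here, so their promoters are not described. The matches describe the sequence and are not evidence of binding.

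MT1E held most of the metallothionein signal and was higher in both shJARID2 libraries. MT1E (gene ID 4493, chromosome 16 from 56625475 to 56627112, + strand of GRCh38) measured 244 and 224 FPKM in shJARID2, against 95.4 and 95.0 FPKM in shSCR. The groups did not overlap, and each shJARID2 library was more than 2 times every shSCR library. These values correspond to 3331 and 3012 reads in shJARID2 and to 1555 and 1617 reads in shSCR. Mean FPKM was 234 ± 14.7 in shJARID2 and 95.2 ± 0.296 in shSCR (SD, n = 2 each), a ratio of 2.46. The log2 fold change on the log2(FPKM + 1) scale was 1.29 (SE 0.057), and 1.54 (SE 0.067) after GC correction.

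MT1X, at the far end of the same gene cluster, had the same direction at a level more than 10 times lower. MT1X (gene ID 4501, from 56682424 to 56684196, + strand) measured 9.71 and 10.9 FPKM in shJARID2, against 4.15 and 4.98 FPKM in shSCR. The groups did not overlap, and the reads behind them were 223 and 247 in shJARID2 and 114 and 143 in shSCR. The ratio of means was 2.26, and the log2 fold change was 1.02 (SE 0.11), or 1.21 (SE 0.096) after GC correction. Within each library the ratio of MT1E to MT1X FPKM was 25.2 and 20.6 in shJARID2, against 23.0 and 19.1 in shSCR, and these ranges overlapped.

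MT2A, which encodes the main human isoform in many tissues, did not separate the groups. MT2A (gene ID 4502, from 56608199 to 56609497, + strand) measured 7.31 and 10.5 FPKM in shJARID2, against 8.94 and 12.9 FPKM in shSCR. The ranges overlapped, and the libraries of one group differed from each other by more than the group means did. Mean FPKM was 8.89 ± 2.23 in shJARID2 and 10.9 ± 2.82 in shSCR (SD, n = 2 each). The log2 fold change was -0.27 (SE 0.23) and 0.019 (SE 0.21) after GC correction. The MT1E to MT2A ratio was 33.4 and 21.4 in shJARID2, against 10.7 and 7.34 in shSCR, which do not overlap. MT2P1, a pseudogene of MT2A on chromosome 4, matched 178 of its 183 bases (97.3%) to the MT2A coding sequence and shared a stretch of 68 bases with its transcript. MT2P1 stood at 10.5 and 14.9 FPKM in shJARID2, against 14.5 and 21.9 FPKM in shSCR, and was not called (-0.47 on the log2 scale, SE 0.25, adjusted p = 0.173, limma; GC-corrected 0.19). Its level was 1.44 and 1.43 times that of MT2A in shJARID2 and 1.62 and 1.70 times in shSCR. Whether its reads came from MT2A was not tested.

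MT1F, another cysteine-rich isoform of the cluster, was listed at 0 and 0.0414 FPKM in shJARID2, against 0 and 0.0981 FPKM in shSCR. These are at most 3 reads in any library, so no fold change is given and MT1F did not enter the tests.

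**Figure D1:**
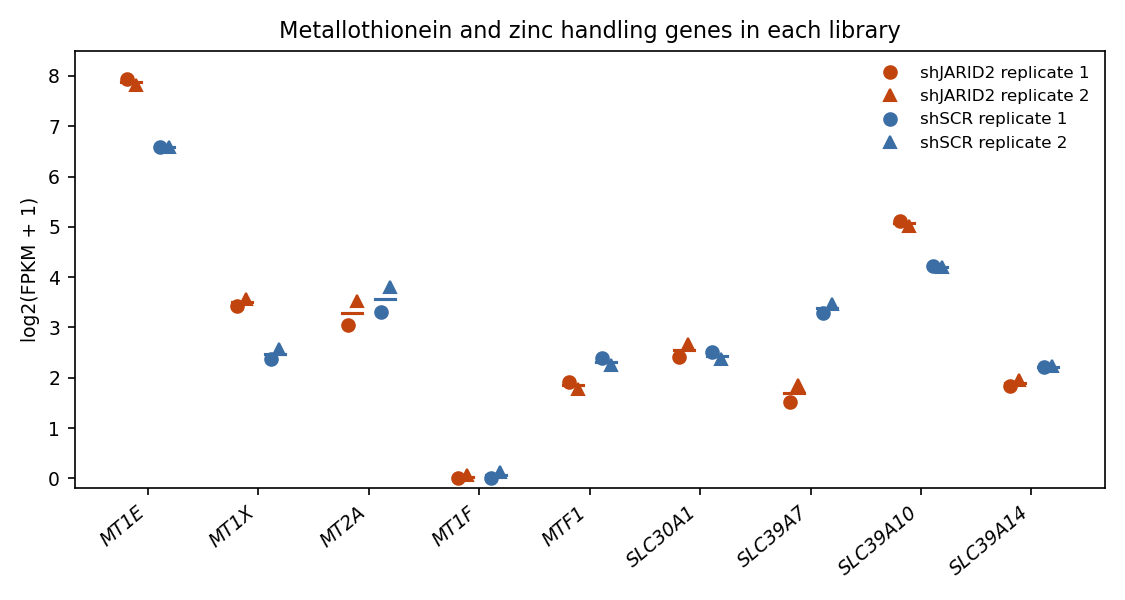
Level of each of the 9 genes with a row, as log2(FPKM + 1) on the vertical axis, in the 2 shJARID2 libraries (left of each pair) and the 2 shSCR libraries (right), where horizontal bars are group means of the plotted values. MT1E, MT1X and SLC39A10 are higher and MTF1, SLC39A7 and SLC39A14 are lower in both shJARID2 libraries, while MT2A, SLC30A1 and MT1F overlap.

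Summed over the 11 metallothionein rows found, pseudogenes included, FPKM was 273 and 262 in shJARID2, against 123 and 137 in shSCR, a ratio of means of 2.05 (summed FPKM of the metallothionein family, shJARID2 over shSCR). The sum depends on which row a read was assigned to, since the rows differ in length: MT2P1, of 183 bases, held 25 and 35 reads in shJARID2 and 41 and 65 reads in shSCR. In FPKM, MT1E made up 89.5% and 85.4% of it in shJARID2 and 77.3% and 69.2% in shSCR. Metallothionein reads were 0.0314% and 0.0298% of the recovered reads in shJARID2 and 0.0132% and 0.0141% in shSCR. The other 6 rows of the family with low values (MT1A, MT1L, MT1M, MT1JP, MT1P1 and MT1P3) reached at most 1.35 FPKM in any library and were not tested. MT1M was at 0.246 and 0.0829 FPKM in shJARID2, against 0 and 0 in shSCR, which is at most 3 reads per library.

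**Figure D2:**
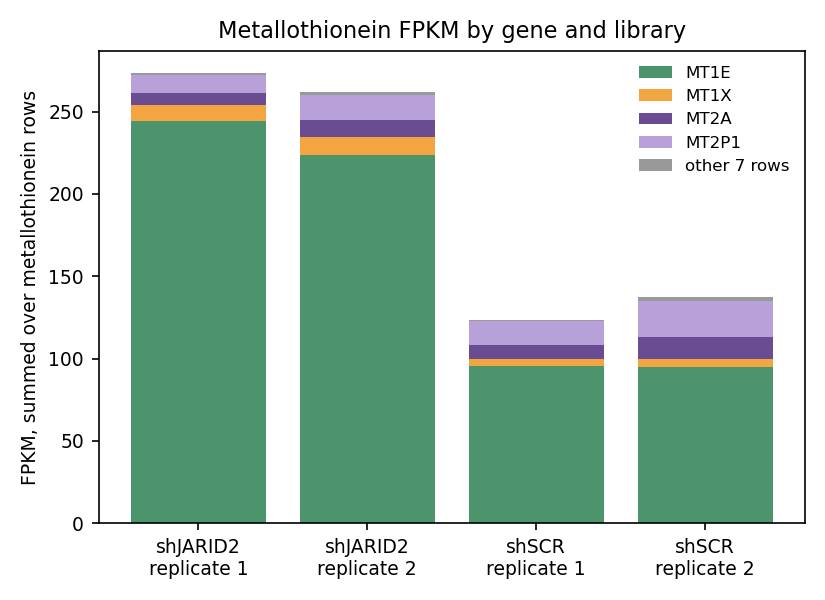
FPKM summed over metallothionein rows (vertical axis, from 0) in each library, stacked by gene. MT1E accounts for most of the height in every library, and the totals are 273 and 262 in shJARID2, against 123 and 137 in shSCR.

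The human metallothionein genes lie side by side on the long arm of chromosome 16, and their nearest protein-coding neighbours are given for comparison. Over the 74.2 kb from the start of MT2A to that of MT1X, MT2A, MT1E and MT1X were the rows above 1 FPKM. On the left, OGFOD1, a prolyl hydroxylase gene, rose (log2 fold change 0.56, SE 0.054, adjusted p = 0.00224, limma; GC-corrected 0.37), with 14.6 and 14.8 FPKM in shJARID2, against 9.90 and 9.42 FPKM in shSCR. BBS2, nearest on that side and part of the BBSome of cilia, measured 2.51 and 2.74 FPKM in shJARID2 and 2.07 and 2.38 FPKM in shSCR and did not pass (0.17, adjusted p = 0.224, limma). On the right, NUP93, a nuclear pore gene, fell (-0.74, SE 0.083, adjusted p = 0.00303, limma; GC-corrected -0.73), with 4.32 and 4.97 FPKM in shJARID2, against 8.40 and 8.37 FPKM in shSCR. SLC12A3, beyond it, stayed at or below 0.025 FPKM. The neighbours thus had no common direction, where 59.7% of all tested genes were called. Whether a stretch within or next to the cluster moved together was not tested.

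**Figure D3:**
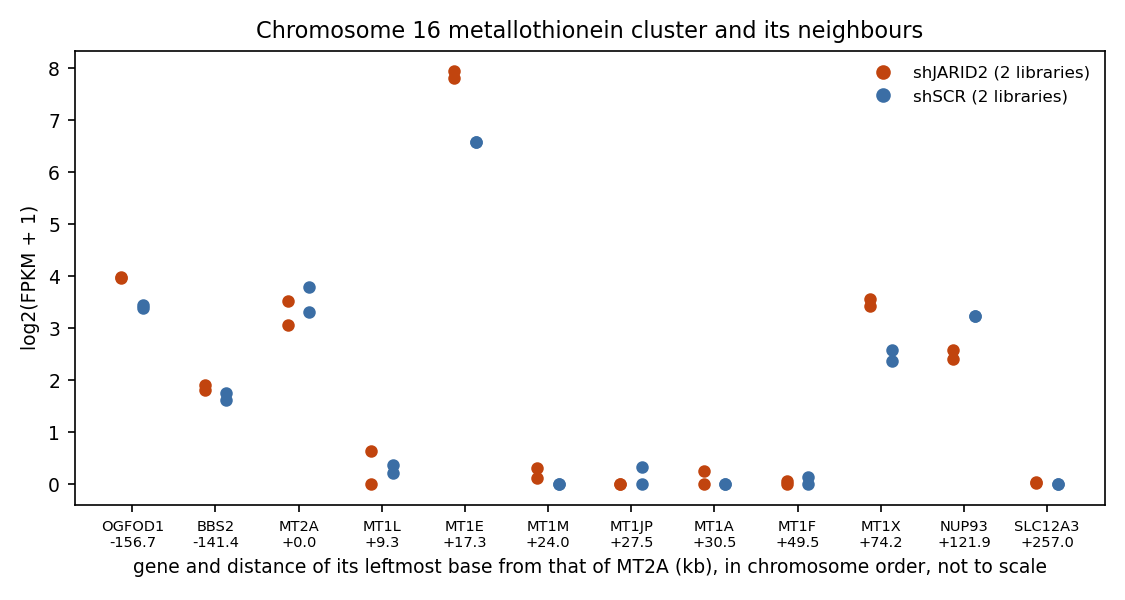
log2(FPKM + 1) of each metallothionein row of chromosome 16 and of the nearest 2 protein-coding genes on each side, in chromosome order with the distance from the start of MT2A in kb, one point per library, shJARID2 left of shSCR. MT1E, MT1X and OGFOD1 are higher and NUP93 is lower in both shJARID2 libraries, while MT2A overlaps.

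MTF1, the transcription factor that senses zinc, was lower in both shJARID2 libraries. MTF1 (gene ID 4520, chromosome 1 from 37809567 to 37859620, - strand) measured 2.79 and 2.43 FPKM in shJARID2, against 4.22 and 3.77 FPKM in shSCR. The groups did not overlap, with 290 and 250 reads in shJARID2 and 525 and 490 reads in shSCR. The ratio of means was 0.654, and the log2 fold change was -0.47 (SE 0.10), or -0.59 (SE 0.098) after GC correction. Its direction was thus opposite to that of MT1E and MT1X and the size did not shrink with the correction. Of 6 other factors known to act at metallothionein promoters, 2 rose and 2 fell (1 and 2 after GC correction). In comparison, 59.7% of all tested genes were called as measured and 44.2% after the correction. The median log2 fold change of the 6 factors was -0.15 (0.048 after GC correction). The glucocorticoid receptor gene NR3C1 rose (0.45, GC-corrected 0.23), with 37.8 and 36.2 FPKM in shJARID2, against 27.3 and 26.3 FPKM in shSCR. USF1, an E-box factor, fell (-0.92, GC-corrected -0.62), as did EP300, a histone acetyltransferase and coactivator (-0.33, GC-corrected -0.50). HIF1A, the hypoxia factor, had a log2 fold change of 0.37 and a call as measured, and -0.007 with no call once GC content was corrected for. SP1 (0.023, GC-corrected 0.10) and USF2 (-0.38, GC-corrected 0.29) did not pass under either. The call of EP300 was lost without shSCR replicate 1. The lower call of MTF1 was itself lost without shSCR replicate 1, without shSCR replicate 2 and without shJARID2 replicate 2, where its log2 fold change was -0.40, -0.53 and -0.40, and with no filter on low values.

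SLC30A1 encodes ZnT1, the exporter of the plasma membrane and a classical MTF1 target, and it did not separate the groups. SLC30A1 (gene ID 7779, chromosome 1 from 211571568 to 211578742, - strand) measured 4.36 and 5.35 FPKM in shJARID2, against 4.71 and 4.15 FPKM in shSCR. The ranges overlapped, and the log2 fold change was 0.10 (SE 0.12) as measured and -0.32 (SE 0.12) after GC correction, so its sign depended on the correction. Without shJARID2 replicate 2 it was -0.018. The gene's transcripts have a GC content of 38.0%, equal to the median GC content of the GC-poorest group when tested genes were ordered by GC content and split into 10 groups, whose median log2 fold change was 0.46.

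The other ZnT genes with enough signal were higher in shJARID2, apart from SLC30A4. Of 9 other ZnT genes found, 4 passed the filter of 1 FPKM on average. Of these 3 rose and 1 was not called, where 28.0% of all tested genes were higher. The median of the 4 was 0.88 (0.45 after GC correction), against -0.018 over all tested genes. SLC30A6, a Golgi transporter that pairs with ZnT5, rose by 0.97 (adjusted p = 0.00188, limma; GC-corrected 0.58), with 32.1 and 29.003 FPKM in shJARID2, against 16.1 and 14.3 FPKM in shSCR. SLC30A7, which also fills the Golgi, rose by 0.84 (adjusted p = 0.0014, limma; GC-corrected 0.36), with 36.9 and 34.2 FPKM in shJARID2, against 19.5 and 19.2 FPKM in shSCR. SLC30A9, a transporter of mitochondria, rose by 0.92 (adjusted p = 0.0014, limma; GC-corrected 0.53), with 13.1 and 13.1 FPKM in shJARID2, against 6.48 and 6.49 FPKM in shSCR. All 3 calls held after GC correction, although the transcripts of these genes are poor in GC, at 36.2% to 39.1%, and their fold changes shrank with it. SLC30A4, of endosomal vesicles, did not pass (0.090, adjusted p = 0.58, limma), at 1.18 and 1.09 FPKM in shJARID2 and 1.09 and 0.926 FPKM in shSCR. The other 5 (SLC30A2, SLC30A3, SLC30A5, SLC30A8 and SLC30A10) were at most 0.759 FPKM.

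SLC39A7 had the lowest ratio of the zinc handling genes described. It encodes ZIP7, which releases zinc from the endoplasmic reticulum into the cytosol. SLC39A7 (gene ID 7922, chromosome 6 from 33200445 to 33204439, + strand) measured 1.87 and 2.64 FPKM in shJARID2, against 8.82 and 10.1 FPKM in shSCR. Both shJARID2 libraries were far below both shSCR libraries, with 69 and 96 reads in shJARID2 and 389 and 466 reads in shSCR. Mean FPKM was 2.25 ± 0.539 in shJARID2 and 9.47 ± 0.917 in shSCR (SD, n = 2 each), a ratio of 0.238. The log2 fold change was -1.69 (SE 0.15), and -1.35 (SE 0.12) after GC correction. Exons of RXRB cover 8.6% of its own.

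SLC39A10 encodes ZIP10, an importer of the plasma membrane. SLC39A10 (gene ID 57181, chromosome 2 from 195575977 to 195737702, + strand) measured 33.9 and 31.2 FPKM in shJARID2, against 17.5 and 17.4 FPKM in shSCR. The groups did not overlap, with 3033 and 2767 reads in shJARID2 and 1880 and 1949 reads in shSCR. The log2 fold change was 0.86 (SE 0.056) as measured, and 0.48 (SE 0.044) after GC correction, in a gene of 39.1% GC.

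SLC39A14 encodes ZIP14, which carries zinc, iron and manganese. SLC39A14 (gene ID 23516, chromosome 8 from 22367249 to 22434129, + strand) measured 2.59 and 2.89 FPKM in shJARID2, against 3.66 and 3.68 FPKM in shSCR. The groups did not overlap as measured, and the log2 fold change was -0.32 (SE 0.089). After GC correction it was 0.051 (SE 0.078), so the lower level did not remain once the trend with GC content was removed. The measured call was also lost without shSCR replicate 1, without shSCR replicate 2 and without shJARID2 replicate 1, at -0.32, -0.32 and -0.26.

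The other ZIP genes moved both ways, and the split depended on the correction. Of 11 other ZIP genes found, 8 passed the filter, of which 2 rose and 4 fell as measured, and 5 rose and 2 fell after GC correction. Their median log2 fold change was -0.18 as measured and 0.26 after GC correction. Calls in both directions were common in the whole table too. There, 28.0% of tested genes were higher and 31.6% lower as measured, and 22.8% and 21.5% with GC content corrected for. SLC39A8, which carries zinc and manganese, rose by 0.50 (adjusted p = 0.00317, limma; GC-corrected 0.23), with 8.94 and 8.94 FPKM in shJARID2, against 5.98 and 6.07 FPKM in shSCR. SLC39A9 rose by 0.36 (adjusted p = 0.00401, limma; GC-corrected 0.30), with 31.0 and 30.6 FPKM in shJARID2, against 24.3 and 23.3 FPKM in shSCR. SLC39A1, a ubiquitous importer of the plasma membrane, fell (-1.29, adjusted p = 0.0052, limma; GC-corrected -0.80), with 2.51 and 3.97 FPKM in shJARID2, against 9.26 and 9.15 FPKM in shSCR. Other genes overlap 69.1% of the exon bases of SLC39A1, and the use of strand is not stated, so this call is uncertain. The fall of SLC39A3 (-0.86, adjusted p = 0.0091, limma) did not pass after GC correction (-0.28) or without shSCR replicate 2 (-0.84, adjusted p = 0.0577, limma).

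Besides SLC39A14 and SLC39A3, the calls of 4 more ZIP genes depended on the correction, with a change of sign in SLC39A13 and SLC39A4. SLC39A13, whose loss causes a connective tissue disorder, fell as measured (-0.44, adjusted p = 0.00377, limma) and rose after GC correction (0.31), with 19.3 and 20.4 FPKM in shJARID2, against 26.7 and 27.9 FPKM in shSCR. SLC39A4, the intestinal importer, fell as measured (-0.34, adjusted p = 0.0493, limma) and rose after GC correction (0.53), and its measured call was lost without any of the 4 libraries. SLC39A6, a partner of ZIP10, measured 18.7 and 19.3 FPKM in shJARID2 and 18.5 and 20.5 FPKM in shSCR and passed only after GC correction (-0.034 and -0.27). SLC39A11, at 2.97 and 3.67 FPKM in shJARID2 and 3.10 and 3.19 FPKM in shSCR, likewise passed only after the correction (0.056 and 0.39). SLC39A2, SLC39A5 and SLC39A12 did not reach the filter.

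**Figure D4:**
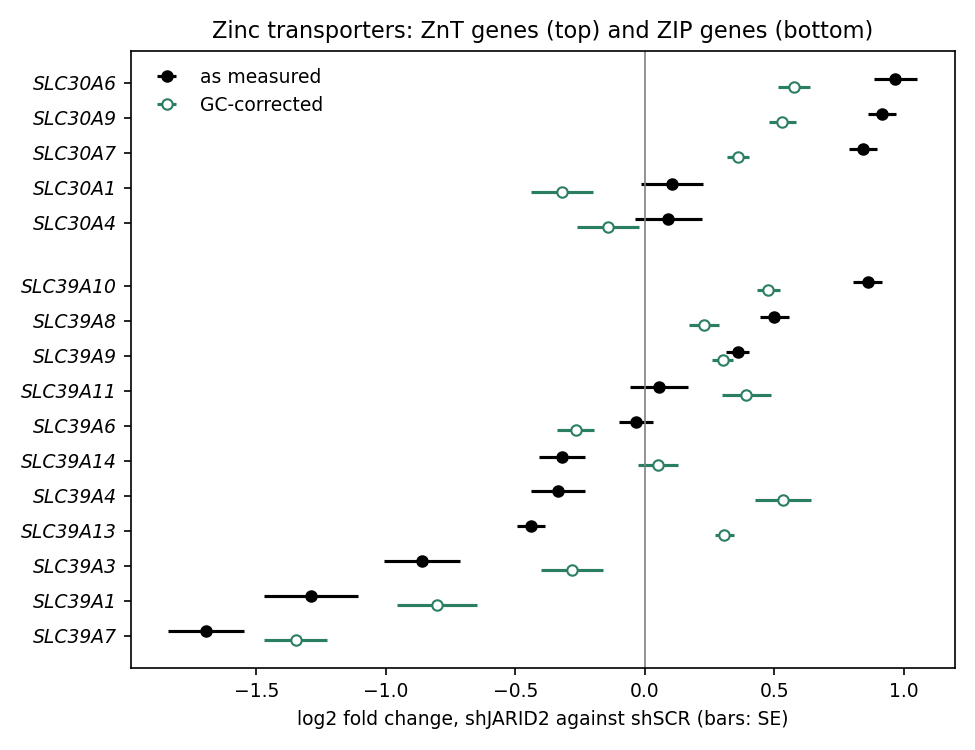
log2 fold change of shJARID2 against shSCR (horizontal axis, bars are SE) for the 5 ZnT genes and 11 ZIP genes tested, as measured (filled) and GC-corrected (open). SLC30A6, SLC30A7, SLC30A9 and SLC39A10 are above 0 and SLC39A7 and SLC39A1 below 0 under both, while SLC39A4, SLC39A13, SLC39A14, SLC30A1 and SLC30A4 lie on opposite sides.

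Counted together, 8 of the 10 listed genes passed the filter, each of them above 1 FPKM in every library. As measured 3 of the 8 were higher (MT1E, MT1X and SLC39A10), 3 lower (MTF1, SLC39A7 and SLC39A14) and 2 not called, where 59.7% of all tested genes were called. The lower calls of MTF1 and SLC39A14 were each lost in 3 of the 4 fits that left out a library, while those of MT1E, MT1X, SLC39A7 and SLC39A10 held in all 4. After GC correction 3 were higher and 2 lower, where 44.2% of all tested genes were called, 22.8% higher and 21.5% lower. FPKM did not overlap between the groups for 6 of the 8, and for 82.9% of all tested genes, 39.8% with shJARID2 higher and 43.1% with shJARID2 lower. The genes were listed with these values known, and fits with a library left out reuse the same libraries. The counts, and the calls held or lost, thus describe the list and support nothing further. The median log2 fold change over the 8 was -0.083, against -0.018 over all tested genes.

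The transcript GC content was 53.5% for MT1E, 52.5% for MT1X, 54.2% for MT2A, 55.2% for SLC39A7 and 55.7% for SLC39A14. The log2 fold changes of these genes ran from -1.69 to 1.29. Among the 10 groups of tested genes by GC content, those with median GC contents of 52.5% and 56.1% had median log2 fold changes of -0.21 and -0.40, with the middle 80% of genes between -0.74 and 0.32 and between -0.95 and 0.11. MT1E, MT1X and SLC39A7 lay outside these ranges, and MT2A and SLC39A14 within them. The genes were listed with their fold changes known, so these positions are a description, and the part of GC content was not tested. SLC39A10, at 39.1% GC and 0.86, lay between the median GC contents of the 2 GC-poorest groups, 38.0% and 40.7%. It was within the middle 80% of the first (-0.11 to 0.98) and just above that of the second (-0.18 to 0.82).

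**Figure D5:**
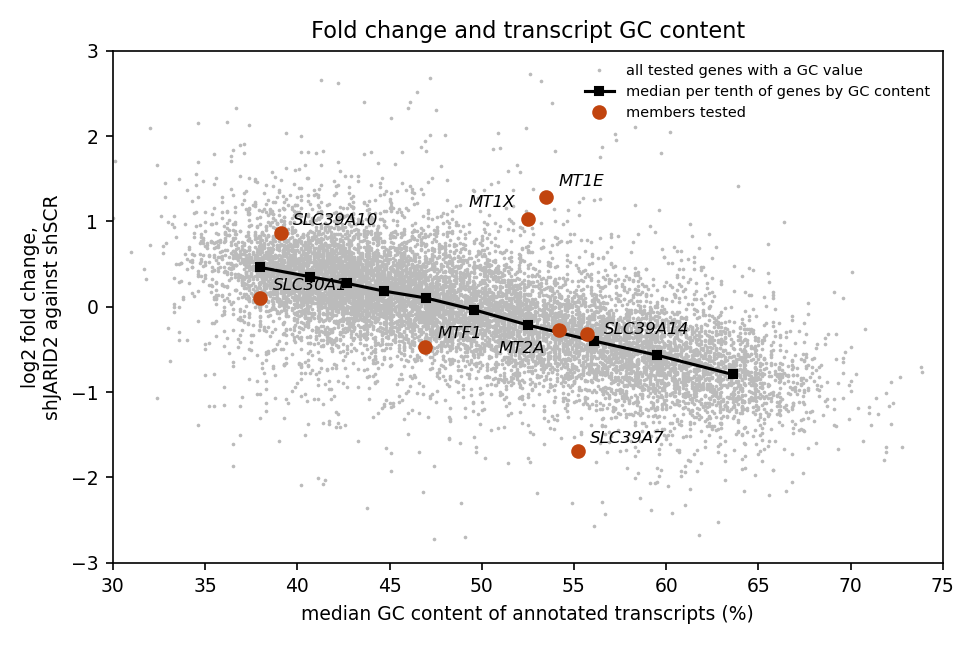
log2 fold change of shJARID2 against shSCR (vertical axis, cropped) by median GC content of a gene's transcripts (horizontal axis, %), for all tested genes with a GC value (grey), the median of each of 10 groups of genes by GC content (black squares) and the 8 genes tested from the list (red). MT1E and MT1X lie above and SLC39A7 below the bulk of genes of like GC content, while MT2A and SLC39A14 lie near the median line.

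Lists of stress and hormone response genes, which the stimuli known to induce metallothioneins also act on, had medians on both sides of the -0.018 of all tested genes. Of 7 tested heat shock genes, whose products are induced by metals and by misfolded protein, 6 fell as measured, and all 7 had negative log2 fold changes, with a median of -0.80 (-0.40 after GC correction). After GC correction 6 also fell, with HSPH1 (-0.40) called in place of HSPB1. Over all tested genes 28.0% were higher and 31.6% lower as measured, and 22.8% and 21.5% after GC correction. BAG3, a co-chaperone, fell (-2.06, GC-corrected -1.50), and the stress factor gene HSF1 (-1.19, GC-corrected -0.40), HSPA1B (-1.06, GC-corrected -0.53) and HSPB1 (-0.80) fell as well (HSPB1 was at -0.0065 after the correction). HSPA1A is a near-identical copy of HSPA1B, so the value of HSPA1B is uncertain, and how reads were split between them was not tested. Of 7 tested genes of the NRF2 and oxidant response, 6 rose and 1 fell (4 and 1 after GC correction). Their median was 0.42 (0.39 after GC correction). The gene that fell was TXNRD1 (-0.38, GC-corrected -0.53). SLC7A11, the cystine importer, rose (1.12, GC-corrected 0.72), as did GCLM, a subunit of the enzyme that starts glutathione synthesis (0.77, GC-corrected 0.51), and the heme oxygenase gene HMOX1 (0.54, GC-corrected 1.19), while NQO1 rose by 0.42 (GC-corrected 0.39). The list held 4 calls without shSCR replicate 1 and 4 without shSCR replicate 2, of 7 with all libraries, and the call of HMOX1 was among those lost.

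Glucocorticoid response genes split, with 2 of 8 tested higher and 3 lower (3 and 1 after GC correction). Their median was 0.062 (0.13 after GC correction). Among all tested genes, 28.0% were higher and 31.6% lower as measured, and 22.8% and 21.5% after the correction. FKBP5, a chaperone of the receptor, rose by 0.43 (GC-corrected 0.18, not called), and ZFP36, an mRNA decay factor (-1.10, GC-corrected -0.37), and PER1 (-0.97, GC-corrected -0.24, not called) fell. CEBPD fell as measured (-0.47) and rose after GC correction (0.63). Without shSCR replicate 1 the list held 3 calls and without shSCR replicate 2 it held 2, of 5 with all libraries. Of 10 tested genes of copper handling, a metal that metallothioneins also bind, 2 rose and 1 fell, and 1 call was left after GC correction. In comparison, 59.7% of all tested genes were called as measured and 44.2% after the correction. The median of the copper genes was 0.14 as measured and -0.016 after GC correction. SLC31A1, the copper importer, rose under both (0.36, GC-corrected 0.20), with 26.2 and 24.3 FPKM in shJARID2, against 19.9 and 19.002 FPKM in shSCR, but its call was lost without shSCR replicate 2 (0.33). COX11 (0.27, GC-corrected -0.012) and CCS (-0.44, GC-corrected 0.21) lost their calls with the correction.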

How the data were processed

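RNA-seq was available for 2 shJARID2 and 2 shSCR libraries, grouped by the labels. The authors deposited FPKM values, per the file headers, in 1 table per library of 85553 rows, of which 25133 had a symbol. Per the submitters' processing notes, the tools included Trimmomatic, HISAT2, SAMtools and featureCounts. Strand, genome build, annotation and multimapping rules: not given in the sources used here. Rows without a symbol held 24.0% and 24.5% of FPKM in shJARID2 and 21.4% and 21.1% in shSCR, and were left out.

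Low FPKM multiplied by exon lengths of GENCODE release 29, matched for 96.8% of the named rows, fell on whole reads. With a tolerance of 0.05 reads, 95.8% to 96.2% of values no larger than 20 reads were whole. This gave the depths and the reads per gene, and is the reason for using this annotation on GRCh38. The test was limma 3.58.1 (R 4.3.3), applied to log2(FPKM + 1) for genes averaging at least 1 FPKM (trended prior, group as the only term, Benjamini-Hochberg over all tested genes). The fold changes understate the change of low genes. GC correction subtracted, in each library, a loess fit (span 0.3, degree 2) of deviations from the gene mean on transcript GC content. The steps were run on simulated data with known changes, independent libraries and a fixed dispersion. Real libraries may differ from that setting, so the run does not show that the calls here are right.

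The members and all gene lists were chosen with earlier results of these data known. Members therefore get levels, fold changes and SE, and no p-value. Their calls, from the fit over all genes, describe the list and are not a test of it. Text names all members, JARID2, every metallothionein row, the ZnT and ZIP genes tested, up to 4 called genes with the largest change per other list and 2 neighbours on each side of the cluster. Other genes named beside these (SP1, USF2, TXNRD1, HSPH1, HSPA1A, NFE2L2 and the genes said to be below a filter) complete a count or a comparison. They were chosen after their values were seen. Alternatives were another pseudocount (0.1), filters, scalings, limma-voom on recovered reads, GC correction, a replicate block and each library left out.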

Additional observations from a re-analysis of the deposited data

How the results depend on the processing

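MT1E, MT1X, MTF1, SLC39A7 and SLC39A10 kept their direction under all 13 alternatives, with log2 fold changes from 1.22 to 1.54, 0.92 to 1.21, -0.60 to -0.40, -2.06 to -1.35 and 0.48 to 0.92. MTF1 was no longer called with no filter or in 3 of 4 fits with a library left out, and SLC39A14 with no filter, GC correction, the block or in 3 of 4 such fits. MT2A changed sign in 2 of 13 and SLC30A1 in 3 of 13. The summed FPKM of the metallothionein family, shJARID2 over shSCR, was 2.09 with median-ratio scaling, 2.08 with named rows scaled to one total, and 1.95 to 2.17 with a library left out. After GC correction, with or without the replicate block, SLC39A14 was at 0.051, SLC39A4 at 0.53, SLC39A13 at 0.31, HIF1A at -0.007, CCS at 0.21, COX11 at -0.012, CEBPD at 0.63 and NFE2L2 at -0.069, all opposite in sign to the measured values. Over the whole table, 2601 genes were lower after GC correction and 2333 with the replicate block added to it, against 3941 as measured. With a library left out, 2168 to 3068 genes were higher, against 3493, and 2462 to 3763 were lower, the lowest both without shSCR replicate 2. Of 3 copper handling calls, 1 was left with no filter, 1 after GC correction, 1 with the replicate block and 1 with both, 6 were made by limma-voom, and 0 to 2 with a library left out. Glucocorticoid calls were 2 to 5 and oxidant response calls 4 to 5 with a library left out. The cause of these shifts was not tested.

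Same-numbered libraries did not deviate together over the whole table (r = 0.029 across genes). This value cannot exclude a link in some of the genes. MT2A and MT2P1 were both higher in replicate 2 than in replicate 1 of each group. The replicate block made 1 call in the metallothionein list besides the members (MT2P1, -0.47, adjusted p = 0.00693, limma), where there was none without it. It also called the member MT2A lower, at an unchanged -0.27, with shJARID2 below shSCR for both replicate numbers, and ended the call of SLC39A14 (-0.32). With 2 libraries per group the precision is limited, and rows such as MT1F and MT1M hold too few reads for any comparison.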
